A study of Mus musculus with 6 samples.

Results

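The Hedgehog pathway genes described here are Ptch1, Hhip, Cdon, Boc, Gas1, Disp1, Gli1, Gli2 and Gli3, 9 genes that encode receptors, coreceptors, a ligand-release protein and the pathway's transcription factors. Their chromatin was followed through 96 accessible intervals of the 52223 measured in the series. An interval belonged to a gene when its midpoint lay inside the protein-coding gene body (50 intervals), or when the nearest protein-coding gene end, within 300 kb, was that of the gene (46 intervals). Nearness does not show that an interval acts on the gene.

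Hedgehog ligands bind Ptch1, the receptor that otherwise holds the membrane protein Smoothened inactive, and the coreceptors Cdon, Boc and Gas1 help present the ligand. Active Smoothened shifts the balance of Gli proteins from repressor forms, supplied mainly by Gli3, to activators, and Ptch1, Hhip and Gli1 are well-known transcriptional targets of the pathway. In the neural tube, Hedgehog from the notochord and floor plate sets ventral identities, and Cdon, Boc and Gas1 are known to be expressed most where signalling is low.

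The assay was ATAC-seq, in which the transposase Tn5 cuts and tags open chromatin, so that fragments pile up at accessible DNA. Mouse embryonic stem cells were turned into neural progenitors by a culture that gave 5 µM CHIR99021, a GSK3 inhibitor, on day 2, 100 nM retinoic acid (RA) together with 10 nM Smoothened agonist (SAG) from day 3, and 10 nM SAG by itself from day 5. SAG acts on Smoothened, below the receptor and coreceptors. Both groups received it, no library without SAG was part of the comparison, and pathway activity itself was not measured. On day 5, 3 control samples (mScarlet; the labels give their genotype as Control) received a lentivirus for the red fluorescent protein mScarlet3. The other 3 (Nr6a1OE; genotype Nr6a1 overexpression) received a lentivirus for Nr6a1-2A-mScarlet3, which adds the orphan nuclear receptor Nr6a1 to the same reporter. Cells were sorted for the red fluorescence on day 9, and 50000 entered each library. The sources used here do not give the virus promoter or the stem cell line. Nothing in the labels says that replicates were separate cultures, and p-values then reflect only how far these samples spread, which may be technical. The comparison asks how Nr6a1 overexpression altered accessibility at the Hedgehog genes.

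Libraries held 6857763 to 8030029 fragments in intervals, and levels are given as CPM, counts scaled to the library size. An interval is called opened or closed when it was higher or lower in Nr6a1OE with an adjusted p below 0.05 (edgeR quasi-likelihood test, Benjamini-Hochberg adjustment over 51637 intervals). The log2 ratio sets Nr6a1OE over mScarlet. An interval was taken as a gene-end interval when its midpoint lay within 1 kb of a gene end. Such intervals were present for 8 of 8 neural progenitor marker genes, whereas 4 of 5 pluripotency genes (Pou5f1, Nanog, Zfp42 and Dppa4) and 3 of 4 paraxial mesoderm genes had none. The remaining mesoderm gene, Tcf15, had a gene-end interval with 18.1 CPM per kb of interval in mScarlet. Markers of other tissues were partly open: 2 of 3 neural crest genes, 2 of 3 endoderm genes and 1 of 3 endothelial genes had a gene-end interval. Their levels in mScarlet reached 18.1 CPM per kb at Foxd3, 19.1 at Gata6 and 26.3 at Kdr, beside 9.44 at the progenitor gene Pax6 and 69.2 at Hes5. Of 6 neuron markers, Elavl3 and Dcx had no gene-end interval, and the summed gene-end accessibility of the other 4 was 199 to 210 CPM in mScarlet and 191 to 207 CPM in Nr6a1OE. Genes without a gene-end interval could still be open elsewhere. Their strongest interval had a mean over all libraries of 65.1 CPM at Elavl3, 61.3 at Tfap2a and 51.4 at Gata4. It was 12.6 CPM at Dcx, 7.96 at Nanog and 14.4 at Meox1. In the wider set of 30 intervals of the neuron markers, 1 closed and 0 opened, with a median log2 ratio of -0.11, where 1.26% of all intervals closed and 0.469% opened. Of the 67 intervals of the progenitor markers, 2 closed, at Nes (log2 ratio -0.45, edgeR adjusted p = 9.35e-09) and Sox2 (-0.72, edgeR adjusted p = 0.0187), and 1 opened, at Pax6. Of the 19 intervals of the endothelial markers, 1 closed, at Kdr. The part of cell content in the results here was not tested, and in a bulk sample fewer cells with an open site cannot be told apart from less opening per cell. At the Nr6a1 gene itself, 1 of 8 intervals opened and 0 closed. The virus of Nr6a1OE also carries Nr6a1 sequence, and whether its fragments were counted at the gene was not tested.

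Promoter windows of RefSeq (GRCm38.p6, the coordinates of mm10), from 250 bases before to 50 bases after a transcription start, were found for 7 of the 9 genes, 8 windows in all because Disp1 has 2. Of the 8 windows, 7 overlapped a measured interval, against 48.1% of all 32817 windows. The one that did not was the only Cdon window, at an inner start of the gene. The only Ptch1 window was also at an inner start. It ended at 63565985 and met only the edge of an interval that began at 63565953. The bases before the start are shown for Gas1, the gene with the clearest summed gain below, and for the inner Disp1 start, which alone among the 8 windows held the nuclear receptor half-site AGGTCA. Both were picked after values were seen. In Gas1 (chr13:60177536-60177785, minus strand) capitals mark the 10 CG dinucleotides. In Disp1 (chr1:183147558-183147807, minus strand) capitals mark the half-site, which reads TGACCT on the strand shown.

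Gas1: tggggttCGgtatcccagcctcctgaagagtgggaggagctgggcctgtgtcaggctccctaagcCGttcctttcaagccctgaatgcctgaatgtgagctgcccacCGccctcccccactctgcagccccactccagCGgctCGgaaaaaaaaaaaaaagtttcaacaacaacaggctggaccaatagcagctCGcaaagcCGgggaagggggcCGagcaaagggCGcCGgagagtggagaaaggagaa

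Disp1: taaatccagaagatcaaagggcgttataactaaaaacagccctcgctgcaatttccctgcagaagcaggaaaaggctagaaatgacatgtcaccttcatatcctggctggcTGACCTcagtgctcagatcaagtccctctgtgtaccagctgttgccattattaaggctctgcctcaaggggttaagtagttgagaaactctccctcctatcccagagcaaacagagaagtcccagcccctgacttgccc

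The half-site AGGTCA, searched on both strands, occurred in 16.3% of all 32817 windows. The Gli consensus GACCACCCA was found in 0 of the 8 member windows and 0.253% of all windows. The extended half-site TCAAGGTCA, which contains AGGTCA, was in 0 of 8 and 0.424% of all, and AGGTCA repeated without a spacer was in 0 of 8 and 0.00609% of all. These matches describe letters in the window only.

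Among the 96 Hedgehog intervals, accessibility rose at 2, one upstream of the coreceptor gene Cdon and one inside the repressor gene Gli3, and fell at 0. Of all intervals tested, 0.469% opened and 1.26% closed. The low-count filter left 93 of the 96, and the other 3, with a mean between 1.02 and 1.51 CPM, were not tested: 2 of Gli3 and 1 of Hhip. The median log2 ratio over the 93 was -0.01, beside 0.00 over all intervals, with 46 above and 47 below 0. Without adjustment, 14 of the 93 were higher at p below 0.05 (background 5.73%) and 7 lower (background 6.87%). All 3 Nr6a1OE libraries lay above all 3 mScarlet libraries at 19 intervals (background 7.89%) and below them at 7 (background 8.73%). Of the 14 nominally higher intervals, 9 belonged to the 3 coreceptor genes, which held 28 of the 93. Those 9 were 6 at Gas1, 2 at Boc and 1 at Cdon.

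**Figure D1:**
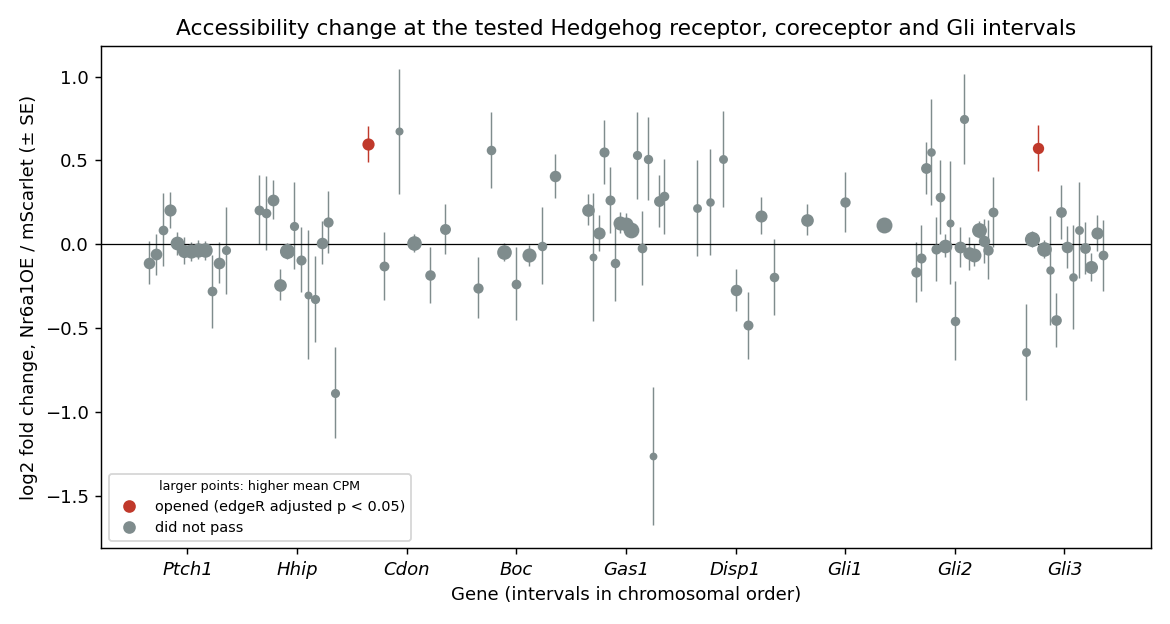
Log2 ratio of accessibility (Nr6a1OE over mScarlet, vertical axis, with bars of 1 standard error) for the 93 tested intervals, in columns by gene and in chromosomal order within a gene; larger points had a higher mean CPM. The opened intervals, 1 at Cdon (0.60) and 1 at Gli3 (0.57), stand in red, and the widest bars belong to weak intervals. The strongest interval of each gene lies between -0.05 (Boc) and 0.17 (Disp1).

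Ptch1, the receptor and a direct target of the pathway, held 12 intervals and none passed (lowest edgeR adjusted p = 0.419). Its gene-end interval (chromosome 13, 63572316 to 63573952, overlapping the start of the gene) gave 62.4, 71.8 and 65.9 CPM in mScarlet 1, 2 and 3 and 63.5, 64.4 and 66.7 CPM in Nr6a1OE 1, 2 and 3. The groups overlapped, with mScarlet 2 highest and mScarlet 1 lowest. The log2 ratio was -0.04 with a 95% interval of -0.14 to 0.07. Those bounds rest on the spread of these samples, which may be technical, so larger changes between separate cultures are not excluded. Ptch1 carried 4 further strong intervals between 5.46 and 18.7 kb inside the gene, and their log2 ratios ran from -0.04 to 0.01. The largest difference at Ptch1, -0.28 with a standard error (SE) of 0.22 (edgeR adjusted p = 0.637), came from a weak interval 20.0 kb upstream (63592958 to 63593958), where the groups overlapped. Over the gene as a whole, 3 intervals were above 0 and 9 below, with a range from -0.28 to 0.20.

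Hhip encodes a membrane protein that binds Hedgehog ligands and keeps them from the receptor, and none of its 12 tested intervals passed. Its gene-end interval, also its strongest (chromosome 8, 80055559 to 80058583), held 99.9, 94.7 and 92.9 CPM in mScarlet and 95.2, 91.4 and 93.1 CPM in Nr6a1OE, a log2 ratio of -0.04 (95% interval -0.13 to 0.05) with overlapping groups. The interval with the largest difference lay 211 kb upstream (80268889 to 80269703) and read 3.01, 3.50 and 4.75 CPM in mScarlet against 2.27, 2.54 and 1.39 CPM in Nr6a1OE. Every Nr6a1OE library was below every mScarlet library there, and the log2 ratio of -0.88 (SE 0.27) missed the threshold (edgeR adjusted p = 0.0603). With mScarlet 2 left out, another Hhip interval, 3.68 kb inside the gene (80054233 to 80054530), closed (log2 ratio -0.35, edgeR adjusted p = 0.0398); with all 6 libraries it was -0.24 and did not pass (edgeR adjusted p = 0.190).

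Cdon, an immunoglobulin-family coreceptor, gained accessibility at 1 of its 6 intervals. The interval lay 49.0 kb upstream of the gene (chromosome 9, 35372054 to 35373063) in a stretch with no annotated gene over it, and the next protein-coding gene, Rpusd4, was 96.6 kb away. It read 13.4, 15.3 and 14.1 CPM in mScarlet 1, 2 and 3 and 20.7, 23.3 and 20.8 CPM in Nr6a1OE 1, 2 and 3. All Nr6a1OE libraries were higher than all mScarlet libraries, and the gap between the groups exceeded the spread within either. From 98 to 113 fragments per library in mScarlet and 146 to 165 in Nr6a1OE, the log2 ratio was 0.60 with a standard error of 0.11 (95% interval 0.39 to 0.81, edgeR adjusted p = 9.54e-06). It was also called by DESeq2 (adjusted p = 0.0211), with an assumed coefficient of variation of 10% between samples (edgeR adjusted p = 0.0383), and with any 1 library left out (highest edgeR adjusted p = 0.00172).

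At the start of Cdon the groups overlapped. The interval there (35421066 to 35422536, overlapping the start) read 71.3, 73.6 and 69.6 CPM in mScarlet and 72.0, 71.1 and 71.9 CPM in Nr6a1OE, with a log2 ratio of 0.01 and a 95% interval of -0.10 to 0.11. The Nr6a1OE values fell within the mScarlet range. The upstream interval was the second most open of the gene, at 14.1 CPM per kb of interval in mScarlet and 21.4 CPM per kb in Nr6a1OE, beside 48.6 CPM per kb in mScarlet at the start. The remaining 4 intervals did not pass. The one with the largest difference, 20.8 kb upstream (35400402 to 35401048), held only 0.874 to 1.51 CPM in mScarlet and 1.84 to 2.13 CPM in Nr6a1OE, a log2 ratio of 0.67 with a standard error of 0.37 (edgeR adjusted p = 0.458) though its groups did not overlap.

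**Figure D2:**
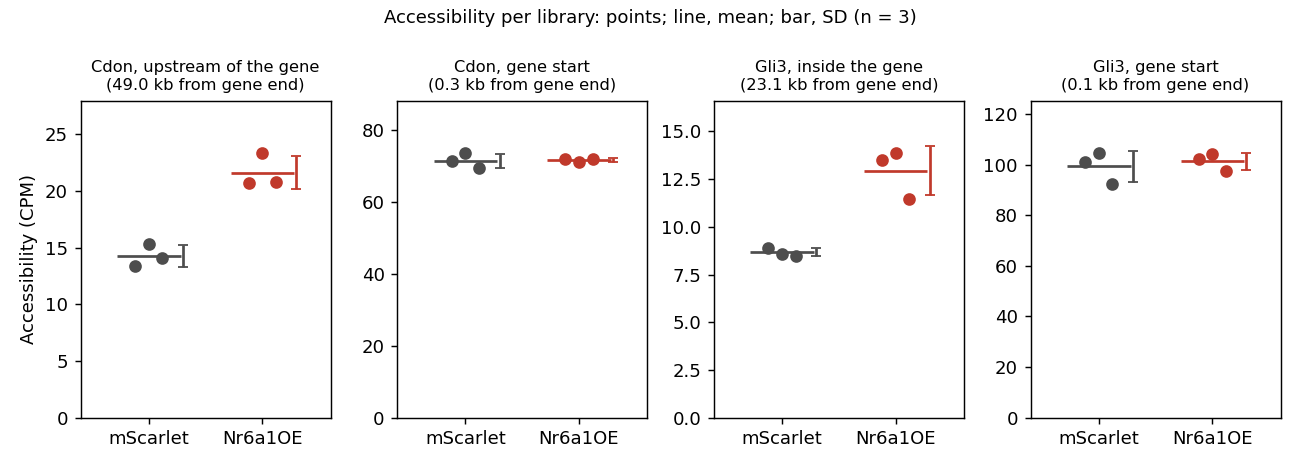
Accessibility in CPM (vertical axes from 0, with their own scale in each panel) for the opened and the gene-start intervals of Cdon and Gli3; points are libraries, lines group means and bars SDs (n = 3). At both opened intervals the mScarlet and Nr6a1OE points do not overlap, while at both gene starts they do.

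Boc, the paralog of Cdon, had 7 intervals and none passed. Its strongest interval, 27.9 kb inside the gene (chromosome 16, 44530170 to 44531758), had a log2 ratio of -0.05 (95% interval -0.15 to 0.06), and the gene-end intervals at 44557324 and 44483939 had -0.07 and -0.26 (edgeR adjusted p = 0.715 and 0.598), all with overlapping groups. The lowest adjusted p of the gene fell on an interval 71.2 kb outside it (44629516 to 44630678), with 9.17, 9.62 and 11.2 CPM in mScarlet and 12.6, 14.8 and 12.6 CPM in Nr6a1OE. The groups did not overlap and the log2 ratio was 0.41 (SE 0.13), short of the threshold (edgeR adjusted p = 0.0762). The largest difference, 0.56 with a standard error of 0.23 (edgeR adjusted p = 0.226), was at a weak interval inside the gene (44494152 to 44495090), where again all Nr6a1OE libraries were higher.

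Gas1, a membrane-anchored coreceptor encoded by a small gene of 3131 bases, had 15 intervals, of which 14 lay outside the gene. None passed alone, and 11 of the 15 were above 0. At an unadjusted p below 0.05, 6 were higher and 1 lower, where all intervals gave 5.73% and 6.87%. The groups stood apart upward at 7 and downward at 1, where all intervals gave 7.89% and 8.73%. The interval over the gene, the strongest of the set (chromosome 13, 60175734 to 60178867), held 129, 134 and 136 CPM in mScarlet and 139, 142 and 142 CPM in Nr6a1OE. Each Nr6a1OE library exceeded each mScarlet library, by a small margin, and the log2 ratio was 0.08 (SE 0.04, edgeR adjusted p = 0.347). The interval 2.74 kb past the far end of the gene (60170820 to 60172521) also had its groups apart, with a log2 ratio of 0.12 (edgeR adjusted p = 0.410). The largest difference was a loss that did not pass at a very weak site 90.1 kb upstream (60267491 to 60267869), 1.51, 2.48 and 2.00 CPM against 0.426, 0.848 and 1.14 CPM, with a log2 ratio of -1.27 (SE 0.41, edgeR adjusted p = 0.0853).

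Disp1 encodes the transporter-like protein that releases lipid-bearing Hedgehog from the cells that make it, and none of its 7 intervals passed (lowest edgeR adjusted p = 0.245). At its start (chromosome 1, 183220868 to 183221814) the level was 15.7, 16.3 and 14.7 CPM in mScarlet and 16.6, 17.9 and 17.9 CPM in Nr6a1OE. These groups did not overlap, with a log2 ratio of 0.17 (SE 0.11, edgeR adjusted p = 0.549). The interval over the inner start whose sequence is shown above (183146879 to 183147867) was lower in every Nr6a1OE library, going from 14.0, 14.4 and 12.4 CPM to 11.8, 10.7 and 11.1 CPM, a log2 ratio of -0.27 (SE 0.13, edgeR adjusted p = 0.330). The largest difference, 0.51 with a standard error of 0.28 (edgeR adjusted p = 0.462), was at 183140480 to 183141167, inside the gene, at 1.51 to 2.62 CPM in mScarlet and 2.65 to 3.98 CPM in Nr6a1OE. Whether the outer and inner starts of Disp1 differ in response was not tested.

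Gli1, the activator whose transcription is a standard readout of Hedgehog signalling, had 3 intervals and all were above 0, with none called. Its gene-end interval (chromosome 10, 127338803 to 127342585) was the strongest of the 96, with 155, 150 and 143 CPM in mScarlet and 166, 156 and 163 CPM in Nr6a1OE. The groups did not overlap, but mScarlet 1 and Nr6a1OE 2 lay close together. The log2 ratio was 0.12 (SE 0.04) and missed the threshold (edgeR adjusted p = 0.0839), though it passed after loess scaling against the mean level (0.13, edgeR adjusted p = 0.0217). The largest difference, 0.25 with a standard error of 0.18 (edgeR adjusted p = 0.595), was inside the gene at 127332233 to 127333623, where the groups overlapped.

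Gli2, a main activator at the onset of signalling, had 17 intervals spread over a gene of 220345 bases and its flanks, and none passed. The interval over its start, also its strongest (chromosome 1, 119052223 to 119054404), read 74.9, 82.5 and 80.2 CPM in mScarlet and 86.7, 83.8 and 82.1 CPM in Nr6a1OE. Only mScarlet 2 reached into the Nr6a1OE range, and the log2 ratio was 0.09 (95% interval -0.01 to 0.19, edgeR adjusted p = 0.479). The largest difference was 0.75 (SE 0.27, edgeR adjusted p = 0.140) at a weak interval 28.2 kb inside the gene (119025689 to 119026744), where mScarlet held 1.75 to 2.74 CPM and Nr6a1OE 2.78 to 4.40 CPM without overlap. Of the 17 intervals, 8 were above 0 and 9 below.

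Gli3, which is processed to the main Gli repressor when signalling is low, gained accessibility at 1 of 14 tested intervals. The site lay 23.1 kb inside the gene (chromosome 13, 15485832 to 15487771). It read 8.90, 8.60 and 8.49 CPM in mScarlet 1, 2 and 3 and 13.5, 13.8 and 11.5 CPM in Nr6a1OE 1, 2 and 3. The Nr6a1OE libraries were all higher, with Nr6a1OE 3 nearest to the controls. From 59 to 68 fragments per library in mScarlet and 91 to 98 in Nr6a1OE, the log2 ratio was 0.57 with a standard error of 0.14 (95% interval 0.31 to 0.84, edgeR adjusted p = 0.00393). The call held with any 1 library left out (highest edgeR adjusted p = 0.0477, without Nr6a1OE 2), but was lost in DESeq2 (adjusted p = 0.332) and with an assumed coefficient of variation of 10% (edgeR adjusted p = 0.147).

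The rest of Gli3 showed no common direction. The interval over the start, the strongest of the gene (15462647 to 15464990), had 101, 104 and 92.4 CPM in mScarlet and 102, 104 and 97.5 CPM in Nr6a1OE, a log2 ratio of 0.03 (95% interval -0.06 to 0.12). The groups overlapped there, with the third library of each group lowest. The interval with the largest difference pointed down: 242 kb upstream (15221436 to 15221711), mScarlet held 2.74 to 4.00 CPM and Nr6a1OE 1.77 to 2.40 CPM, with a log2 ratio of -0.64 (SE 0.29, edgeR adjusted p = 0.296). Over the 14 tested intervals, 5 were above 0 and 9 below. By Euclidean distance over the 6 libraries of centred log2 CPM, the member interval most like the opened Cdon interval was the opened Gli3 interval (distance 0.23), followed by the Boc interval at 44629516 (0.33) and the Gas1 interval at 60242573 (0.37). For the opened Gli3 interval the next after Cdon were the same Boc interval (0.35) and an untested Gli3 interval at 15427098 (0.37). The distances use the same 6 libraries as the calls, so they largely restate the log2 ratios and carry no independent weight.

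**Figure D3:**
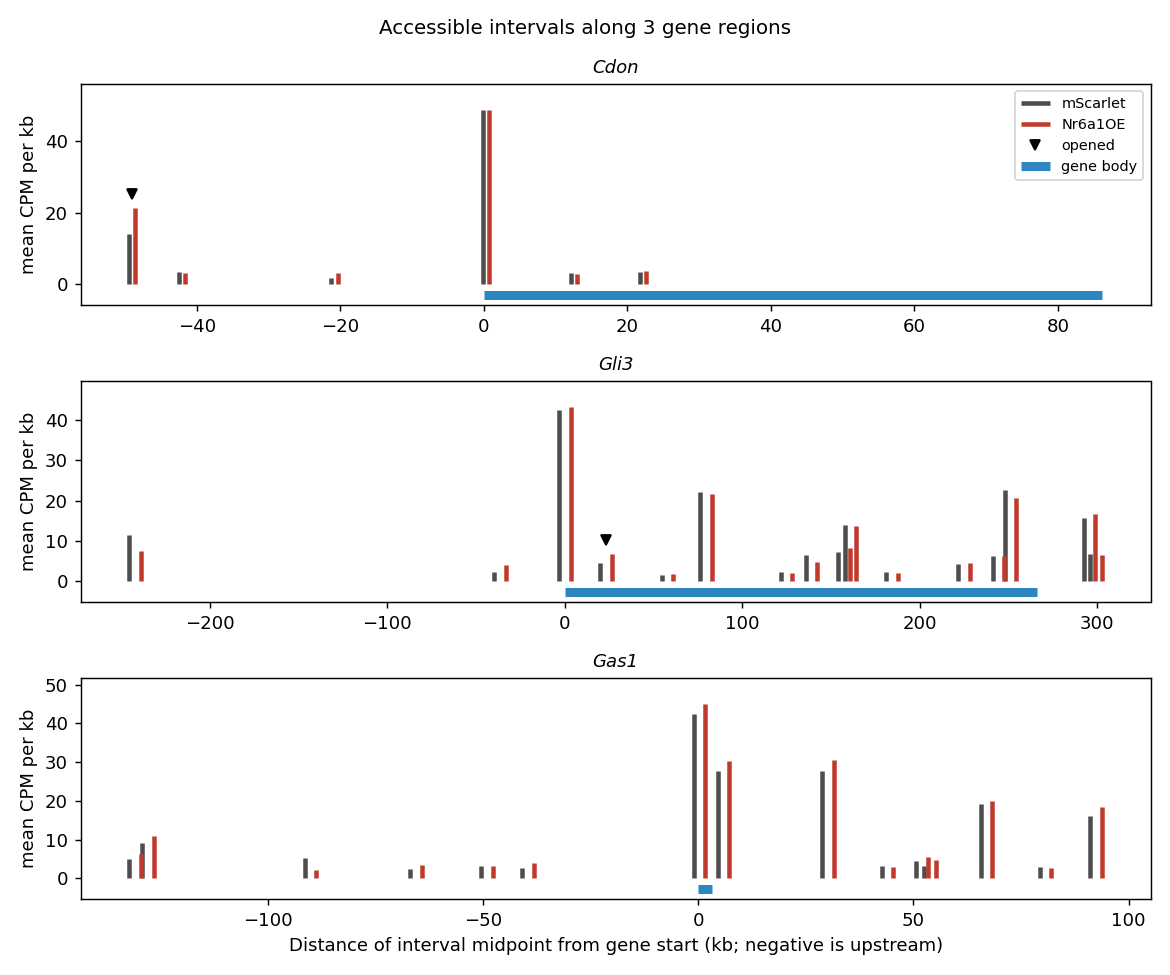
Mean accessibility per kb of interval in mScarlet (grey) and Nr6a1OE (red) along Cdon, Gli3 and Gas1, against the distance of each interval from the gene start; the pairs of bars are set side by side about each position, the blue bar is the gene body and triangles mark opened intervals. The gene starts are the tallest bars in each panel with near-equal heights, the opened Cdon site stands 49.0 kb upstream and the opened Gli3 site 23.1 kb inside, and most Gas1 bars are slightly taller in Nr6a1OE.

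Levels at gene ends, on a scale per length of interval, differed among the genes. In mScarlet, per kb of interval, Cdon was highest (48.6 CPM per kb), followed by Gas1 (42.5), Gli3 (42.4), Ptch1 (40.8), Gli1 (39.5), Hhip (31.7), Boc (25.8) and Disp1 (16.5). From Gas1 to Gli1 in this order, the ranges over mScarlet libraries of neighbouring genes overlapped, while those of Gas1 and Gli1 themselves did not. The median over 12380 genes with a gene-end interval was 32.4 CPM per kb. The midpoint of the Gli2 start interval lay 1.09 kb from the gene end, outside the 1 kb limit, so Gli2 has no value on this scale. None of the 9 intervals within 1 kb of a member's gene end passed the test.

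When all intervals of a gene were summed and every one of 16498 genes was tested, summed accessibility rose at Gas1 and Gli1 and fell at none of the 9. Of all gene sums, 0.867% rose and 1.05% fell. CPM of sums are scaled to the total of all gene sums, so they cannot be set beside interval CPM. Gas1 went from 279, 287 and 294 CPM in mScarlet to 304, 323 and 311 CPM in Nr6a1OE, with every Nr6a1OE library above every mScarlet library. The log2 ratio was 0.12 (SE 0.03, 95% interval 0.07 to 0.18, edgeR adjusted p = 0.00152). Without the interval over the gene, an alternative chosen after seeing the data, the Gas1 sum still rose, by 0.15 (edgeR adjusted p = 0.00446). DESeq2 also called Gas1 (adjusted p = 0.0445), but it was lost without mScarlet 1 (edgeR adjusted p = 0.0711), without Nr6a1OE 2 (0.0725) and with an assumed coefficient of variation of 10% (1.00).

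Gli1 went from 171, 168 and 161 CPM to 186, 176 and 183 CPM, again without overlap. The log2 ratio of the sum, of which the gene-end interval made up 83.9% in interval CPM, was 0.13 (SE 0.03, edgeR adjusted p = 0.0174). Its call was lost in DESeq2 (adjusted p = 0.129), with the assumed 10% (edgeR adjusted p = 1.00) and without mScarlet 3 (0.246), Nr6a1OE 1 (0.151) or Nr6a1OE 3 (0.115). It was also lost without the gene-end interval, again the alternative chosen after seeing the data (log2 ratio 0.16, edgeR adjusted p = 0.306). The Cdon sum, 98.4 to 105 CPM in mScarlet and 107 to 109 CPM in Nr6a1OE, did not overlap either and did not pass (log2 ratio 0.10, edgeR adjusted p = 0.250). With the gene-end interval taken out, an alternative chosen after seeing the data, the Cdon sum passed (0.26, edgeR adjusted p = 0.0162), with the opened interval as its largest part. The 95% intervals of the other 6 sums included 0 and ran at the widest from -0.15 to 0.10, at Disp1.

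**Figure D4:**
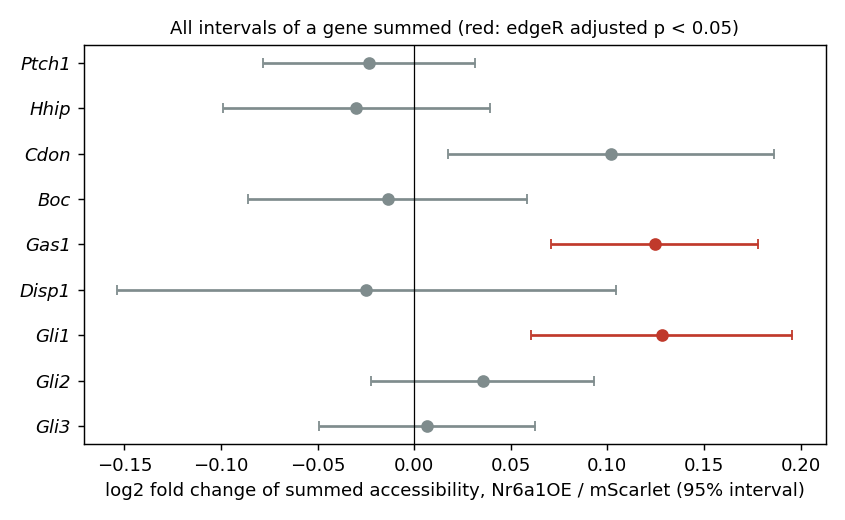
Log2 ratio of the summed accessibility of each gene (horizontal axis, Nr6a1OE over mScarlet, with 95% intervals). Gas1 (0.12) and Gli1 (0.13), in red, passed the edgeR test over all genes; the Cdon interval (0.02 to 0.19) also lies above 0 but its adjusted p did not pass.

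Of 27 other pathway genes (ligands and their processing, Smoothened and other transducers, regulators of Gli proteins, and cilium genes), all 116 intervals were tested, and 2 opened and 1 closed. The shares over all intervals tested were 0.469% opened and 1.26% closed. Both pathway openings were at Scube1, which encodes a secreted protein of the family that helps release Hedgehog ligands and which had 11 intervals. The one inside the gene (chromosome 15, 83698696 to 83700523) rose from 12.9, 16.6 and 15.1 to 19.2, 21.9 and 22.5 CPM (log2 ratio 0.52, edgeR adjusted p = 3.12e-04). The one 9.77 kb outside it (83734161 to 83735473) rose from 17.0, 15.2 and 19.0 to 24.3, 24.4 and 21.6 CPM (0.45, edgeR adjusted p = 0.00147). Neither pair of groups overlapped, and both calls held with any 1 library left out and were lost in DESeq2 (adjusted p = 0.148 and 0.233). The closed interval lay inside Btrc (chromosome 19, 45458437 to 45459232), a gene for a ubiquitin ligase subunit that acts in Gli processing, with a log2 ratio of -0.32 (edgeR adjusted p = 0.0466). It held only without Nr6a1OE 1 (0.0299) among the fits lacking 1 library and was lost without mScarlet 1 (0.164), mScarlet 2 (0.115), mScarlet 3 (0.0943), Nr6a1OE 2 (0.332) or Nr6a1OE 3 (0.112). The 6 intervals of Shh and the 3 of Smo did not pass.

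Genes that respond to Hedgehog in the neural tube were counted by the same assignment. For the ventral genes Nkx2-2, Nkx2-9, Foxa2, Olig2, Nkx6-1 and Nkx6-2, 3 of 62 intervals closed and 0 opened, with a median log2 ratio of -0.07. The closed intervals were 1 at Nkx2-2, 1 at Foxa2, 157 kb from that gene, and 1 at Nkx6-1, 135 kb from that gene. For the dorsal or intermediate genes Pax3, Pax7, Pax6, Irx3, Dbx1 and Dbx2, 7 of 72 tested intervals opened and 0 closed, with a median of 0.07. The openings were 3 at Irx3, 2 at Pax7 and 1 each at Pax3 and Pax6, with 0 at Dbx1 and Dbx2. Those of Irx3 lay 4.5, 74.5 and 166 kb from an end of that gene. The Pax6 one lay 92.8 kb from its gene, at a mean of only 2.51 CPM. Both Pax7 openings were inside the gene, and the Pax3 one was 0.355 kb from a gene end. Over all intervals tested, 0.469% opened and 1.26% closed. The ventral count was 1 without mScarlet 1, 2 or 3 or Nr6a1OE 1 or 3, and 2 without Nr6a1OE 2, and DESeq2 called 1. The dorsal count was 2 without mScarlet 1, 3 without Nr6a1OE 2, 4 without Nr6a1OE 3, 5 without mScarlet 2 or Nr6a1OE 1 and 7 without mScarlet 3, and DESeq2 called 0. With an assumed coefficient of variation of 10%, both counts were 0. These lists were chosen with earlier results of the data known and carry no independent weight.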

How the data were processed

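ATAC-seq was measured in 3 mScarlet and 3 Nr6a1OE samples. The authors deposited raw fragment counts per library for 52223 consensus intervals, in 1 table. Per the file headers it was made with featureCounts 2.0.1 on read pairs, a fragment counting for every interval it overlapped by at least 0.2 of its length, so neighbouring intervals share fragments and sums count some fragments more than once. Per the submitters' processing notes the build is mm10. The aligner, the peak caller and duplicate handling were not given in the sources used here. Gene positions came from RefSeq (GRCm38.p6), without exons, and no genome sequence was used here.

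Intervals were filtered with filterByExpr, scaled with TMM (trimmed mean of M values) and tested without covariates in edgeR 4.0.16 (glmQLFTest after glmQLFit, R 4.3.3). The threshold was a Benjamini-Hochberg adjusted p of 0.05. The table was fitted whole, and the procedure was tested on simulated counts with planted changes. Those counts had a small fixed spread, so that test says nothing about variation between separate cultures. CPM of intervals are counts over the TMM-scaled library size. CPM of gene sums are over the TMM-scaled total of all gene sums tested, which is a different scale. SEs were derived from each log2 ratio and its F statistic. Gene sums were fitted the same way over all genes. Alternatives were DESeq2 1.42.0, other scalings and filters, a replicate block, an assumed coefficient of variation of 10%, Nr6a1OE 1 and 3 summed, other assignment rules and leaving out each library.

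Replicates of a group differed slightly beyond counting noise (1.05 to 1.10 in chi-square per degree of freedom) and each was kept. Intervals given in full were those past the threshold, those within 1 kb of a member's gene end, and for each gene the one with the highest mean and the one with the largest absolute log2 ratio. Others, such as those just short of the threshold, were picked after their values were seen. The members and lists were chosen with earlier results of these data known.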

Additional observations from a re-analysis of the deposited data

How the results depend on the processing

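The 2 opened member intervals were 1 in DESeq2, with an assumed coefficient of variation of 10% and for gene bodies only, and 0 closed became 0 to 1 when 1 library was left out. The 2 opened intervals of the other pathway genes were 0 in DESeq2 and at 10%, and 1 for gene bodies only. Their 1 closed interval was 0 in DESeq2, at 10% and with the replicate block, and 0 to 1 without 1 library. The 2 raised gene sums were 1 in DESeq2, 0 at 10% and 1 to 2 without 1 library. With the replicate block the member counts stayed at 2 opened and 0 closed. Same-numbered samples did not deviate together (correlations -0.01 to 0.01), so the numbers were not taken as pairs.

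Values near 0 changed sign. Leaving out 1 library gave -0.0122 to 0.0248 for the Cdon start interval, -0.0193 to 0.0663 for the Gli3 start interval, -0.0797 to 0.0146 for the Ptch1 gene-end interval and -0.019 to 0.0316 for the Gli3 sum. Without gene-end intervals, chosen after seeing the data, the Gli3 sum was -0.0153 and the Boc sum 0.0209. Of the single values under alternatives, 378 kept direction and side of the threshold, 11 lost the call, 2 gained it and 8 reversed. The cause of these changes was not tested. Weak intervals limit what could be seen: log2 ratios of 0.75, -0.88 and -1.27 at intervals of a few CPM, with SEs of 0.27 to 0.41, did not pass.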
